A study of Mus musculus with 16 samples.

Results

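The genes described here encode the 3 large families of conjugating (phase II) enzymes: the UDP-glucuronosyltransferases (Ugt), the soluble glutathione S-transferases (Gst) and the cytosolic sulfotransferases (Sult). They were taken by symbol, as every probeset with exactly 1 gene symbol beginning with Ugt1, Ugt2, Ugt3, Gsta, Gstk, Gstm, Gsto, Gstp, Gstt, Gstz or Sult, with the brightest probeset per symbol and without pseudogenes. This gave 51 genes of the 30142 measured: 10 Ugt, 20 Gst and 21 Sult. No Ugt1 gene was among them, and Ugt1 was not analysed here. Kidney cortex from 16 female mice was extracted for glomeruli, and 10 ng of each mouse's RNA was amplified with a Pico kit and hybridised to an Affymetrix array of its own. The KO mice carried a knockout of oestrogen receptor alpha (B6.ERαKO), the product of Esr1, and the WT mice were C57Bl/6. Either genotype had 8 mice in 4 groups of 2: untreated, or 18 hours, 6 days or 2 weeks past an intraperitoneal injection of sheep nephrotoxic serum at 8 ul per g, which starts an immune nephritis against the glomerular basement membrane. The labels do not give the mice's age, the deleted part of Esr1 or the cells in which it is lost.

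Ugt enzymes transfer a sugar, usually glucuronic acid, to steroids, bile acids and drugs in the endoplasmic reticulum. Gst enzymes couple glutathione to reactive electrophiles such as products of lipid peroxidation. Sult enzymes transfer sulfate from the donor PAPS to phenols, catecholamines and steroids. In the kidney these reactions take place mainly in the proximal tubule, which takes up and secretes organic anions, and several of the enzymes differ between male and female rodents.

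The extracts held tubule RNA as well as glomerular RNA. The mean of 14 measured proximal tubule markers was 15.62 and 15.84 in untreated KO and 15.53 and 16.0 in untreated WT, and the mean of 9 podocyte markers was 8.86 and 9.32 in untreated KO and 10.27 and 9.36 in untreated WT. Both 18-hour replicate 2 arrays stood with the other genotype: the mean of 10 genes that are higher in male kidney, none of them a member, was 8.94 in that KO array and 15.49 in that WT array, against 14.5 and 9.21 in the replicate 1 arrays of KO and WT. A further array, KO 2 weeks replicate 1, had a tubule injury marker mean of 5.93, near the 6.38 and 6.08 of untreated KO, while its replicate had 9.55. Labels were kept as given, and results are set beside those without both 18-hour replicate 2 arrays (14 arrays), also without KO 2 weeks replicate 1 (13 arrays), and without any 18-hour array (12 arrays). Whether labels were exchanged was not tested. These arrays were left out after their values were seen, and the largest member differences moved with the genes that set the 18-hour replicates 2 apart. Smaller SEs and p-values and less overlap over 14, 13 or 12 arrays follow in part from that choice. Those p-values are descriptive and are no independent support. Esr1 itself was not lower in KO (0.55 ± 0.11, SE, limma adjusted p = 0.218 over 16 arrays), and the labels do not say whether its probeset lies in the deleted part, so this checks nothing. Values are deposited log2 units with a transformation that is not stated, so differences are not folds of RNA. In bulk extracts fewer cells of a type and less RNA per cell cannot be told apart.

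The members with the largest differences between genotypes lay in a block of Ugt2b genes on chromosome 5, of which 5 passed the test over 14 arrays and 0 over 16. Start regions of 4 of these are shown first because 3 are near copies of each other. The sequences below are the 300 bases from 250 before to 50 after the annotated start, from RefSeq on GRCm38.p6, all on the minus strand and written 5′ to 3′. Capitals in Ugt2b38 and Ugt2b5 mark an aligned base that differs from Ugt2b37, while inserted bases and bases beyond the alignment stay in lower case. Ugt2b34, which lies in the same block and moved the other way, is shown for contrast with no bases marked.
Ugt2b37, chr5:87254739-87255038: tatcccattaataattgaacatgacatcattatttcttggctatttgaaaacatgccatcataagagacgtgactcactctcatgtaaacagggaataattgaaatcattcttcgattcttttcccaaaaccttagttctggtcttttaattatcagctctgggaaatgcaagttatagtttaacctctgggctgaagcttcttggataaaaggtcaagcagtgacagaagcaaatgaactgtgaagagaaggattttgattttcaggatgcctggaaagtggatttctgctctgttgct
Ugt2b38, chr5:87424154-87424453: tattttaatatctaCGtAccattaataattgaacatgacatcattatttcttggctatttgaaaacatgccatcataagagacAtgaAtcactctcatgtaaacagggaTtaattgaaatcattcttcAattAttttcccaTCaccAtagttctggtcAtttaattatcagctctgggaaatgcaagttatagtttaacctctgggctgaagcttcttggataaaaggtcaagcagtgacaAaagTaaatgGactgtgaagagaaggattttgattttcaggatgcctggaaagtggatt
Ugt2b5, chr5:87140291-87140590: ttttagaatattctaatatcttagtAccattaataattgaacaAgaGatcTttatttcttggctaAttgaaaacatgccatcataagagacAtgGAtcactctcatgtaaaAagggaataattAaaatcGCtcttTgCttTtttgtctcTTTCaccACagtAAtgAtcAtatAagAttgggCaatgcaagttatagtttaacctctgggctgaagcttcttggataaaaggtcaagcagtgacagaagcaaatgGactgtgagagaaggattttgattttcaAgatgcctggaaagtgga
Ugt2b34, chr5:86906888-86907187: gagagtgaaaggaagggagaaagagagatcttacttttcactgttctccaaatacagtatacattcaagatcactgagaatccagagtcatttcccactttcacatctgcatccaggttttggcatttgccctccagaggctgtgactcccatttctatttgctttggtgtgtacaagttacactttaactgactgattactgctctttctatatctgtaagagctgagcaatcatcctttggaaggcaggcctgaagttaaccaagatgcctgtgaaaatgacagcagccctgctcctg

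Over the aligned bases the Ugt2b37 and Ugt2b38 regions were identical at 271 of 286 positions (94.8%). Ugt2b5 shared 89.1% with Ugt2b37 and 90.0% with Ugt2b38. Ugt2b36, whose enzyme belongs to the same subfamily, shared 69.8% to 70.6% with these 3 genes. Ugt2b34 shared between 54.3% and 59.3% with the other 6 Ugt2b members, which is near the median of 54.9% over 301 pairs of member regions on different chromosomes (47.3% to 64.5%). These identities are of start regions, and the transcripts that the probes read were not compared. Cross-hybridisation between these related genes was not tested, so the separate values of Ugt2b37, Ugt2b38 and Ugt2b5 are uncertain as measures of single genes. The labels do not give the probes' positions in them.

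Ugt2b37, Ugt2b38 and Ugt2b5, glucuronosyltransferases of a subfamily that acts on steroids and drugs, were higher in KO arrays at every time outside the 18-hour replicate 2 arrays. Ugt2b37 in KO stood at 17.04 and 16.96 untreated, 16.95 and 8.18 at 18 hours, 16.5 and 17.28 at 6 days, and 16.84 and 13.11 at 2 weeks. In WT it stood at 8.95 and 8.66 untreated, 8.38 and 17.9 at 18 hours, 8.95 and 8.99 at 6 days, and 10.89 and 9.42 at 2 weeks. Thus 6 KO arrays were at 16.5 or above and 7 WT arrays at 10.89 or below, and the KO 2 weeks replicate 2 array lay between them. At 18 hours the replicate 2 array of each genotype lay with the arrays of the other. The difference averaged over the 4 times was 5.09 ± 1.45 over 16 arrays (SE, limma adjusted p = 0.272) and 7.38 ± 0.55 over 14 arrays (adjusted p = 0.000388).

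Ugt2b38 in KO stood at 18.41 and 18.28 untreated, 18.01 and 12.79 at 18 hours, 18.55 and 18.49 at 6 days, and 18.42 and 14.44 at 2 weeks. In WT its values were 12.78 and 14.89 untreated, 12.91 and 18.65 at 18 hours, 13.43 and 12.96 at 6 days, and 12.79 and 14.28 at 2 weeks. Its genotypes overlapped even without the 18-hour replicates 2, because KO 2 weeks replicate 2 at 14.44 lay below WT untreated replicate 2 at 14.89. The average difference was 3.09 ± 0.97 over 16 arrays (adjusted p = 0.291) and 4.46 ± 0.64 over 14 arrays (adjusted p = 0.0115).

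Ugt2b5 in KO stood at 15.02 and 14.85 untreated, 14.86 and 8.92 at 18 hours, 14.68 and 15.01 at 6 days, and 15 and 11.61 at 2 weeks. WT arrays had 9.07 and 10.14 untreated, 9.13 and 15.94 at 18 hours, 9.34 and 8.85 at 6 days, and 9.9 and 10.4 at 2 weeks. KO 2 weeks replicate 2 was again the lowest KO array after 18 hours replicate 2, and it stayed above every WT array except 18 hours replicate 2. The average difference was 3.40 ± 1.04 over 16 arrays (adjusted p = 0.285) and 4.99 ± 0.49 over 14 arrays (adjusted p = 0.00152).

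**Figure D1:**
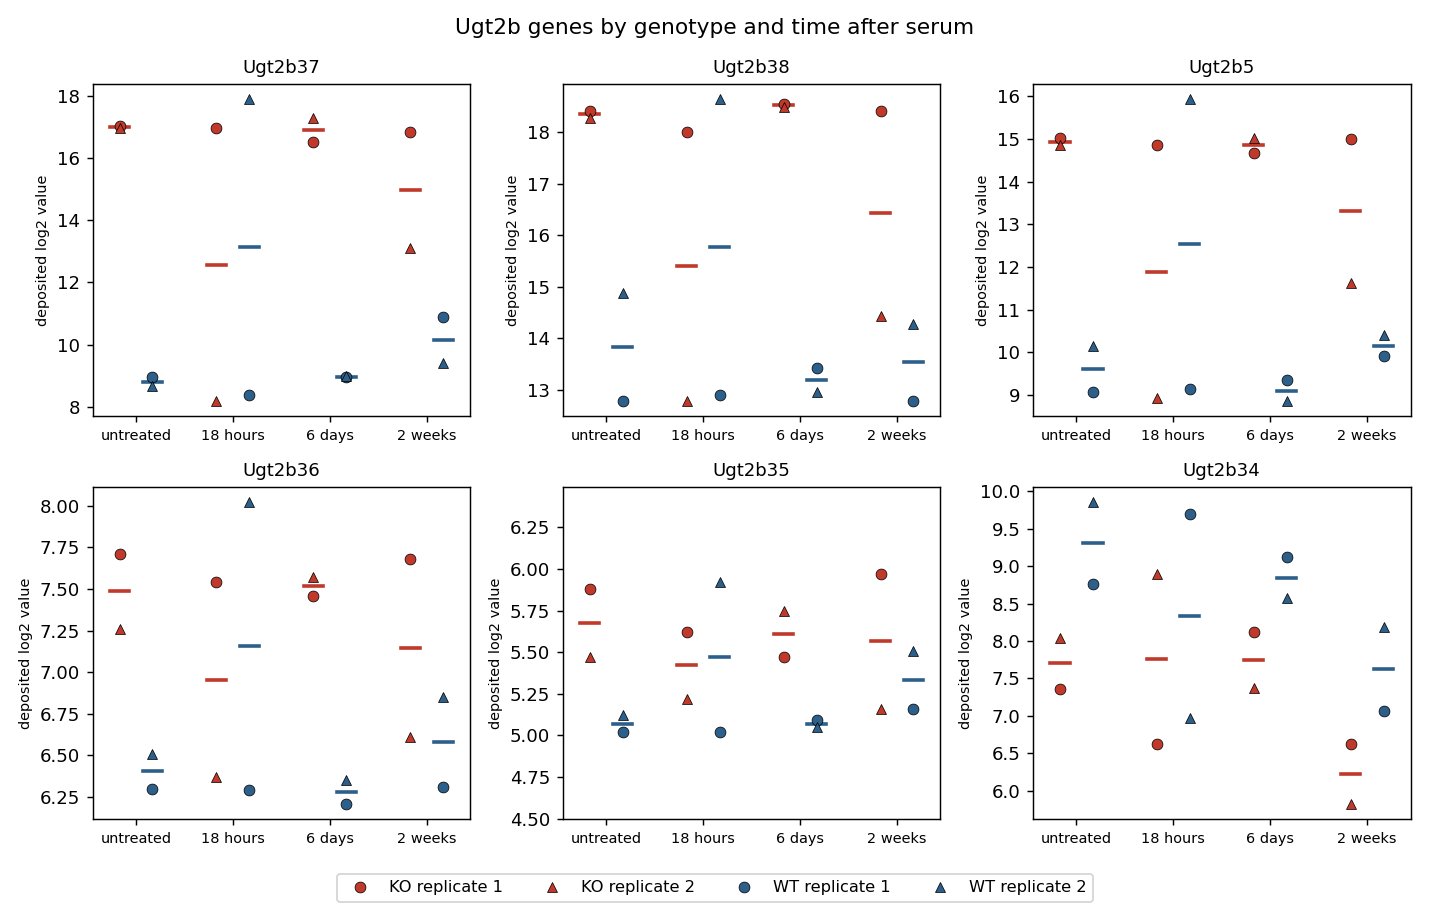
Deposited log2 values of 6 Ugt2b genes on each array (points; circles are replicate 1, triangles replicate 2) with group means (bars), by time after serum, KO left of WT. Ugt2b37 lies at 16.5 or above on 6 KO arrays and at 10.89 or below on 7 WT arrays, and at 18 hours the replicate 2 point of each genotype lies with the other genotype. Ugt2b34 runs the other way, and the scales differ between panels.

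Ugt2b36 followed the same direction over a smaller span. In KO it was between 7.26 and 7.71 except at 18 hours replicate 2 (6.37) and 2 weeks replicate 2 (6.61), and in WT between 6.21 and 6.85 except at 18 hours replicate 2 (8.02). Its average difference was 0.67 ± 0.27 over 16 arrays (adjusted p = 0.366) and 1.03 ± 0.18 over 14 arrays (adjusted p = 0.0273). The other members of this subfamily had low values on every array and did not pass the test over 14 arrays: Ugt2b35 differed by 0.49 ± 0.14 (adjusted p = 0.145) and Ugt2b1 by 0.25 ± 0.10 (adjusted p = 0.285). Ugt2a3, which stands between Ugt2b37 and Ugt2b38 on the chromosome, differed by 0.51 ± 0.13 (adjusted p = 0.111).

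Ugt2b34 was the Ugt member with lower values in KO. It stood at 7.36 and 8.04 in KO untreated, 6.63 and 8.9 at 18 hours, 8.12 and 7.37 at 6 days, and 6.62 and 5.82 at 2 weeks. In WT it stood at 8.76 and 9.86 untreated, 9.69 and 6.97 at 18 hours, 9.12 and 8.57 at 6 days, and 7.06 and 8.19 at 2 weeks. The genotypes were separate at 18 hours only once the replicates 2 were left out, and across times they overlapped through WT 2 weeks replicate 1. The average difference was -1.17 ± 0.44 over 16 arrays (adjusted p = 0.346) and -1.79 ± 0.28 over 14 arrays (adjusted p = 0.0178).

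In the order of the genes on chromosome 5, the members ran Ugt2b34, Ugt2b1, Ugt2b35, Ugt2b36, Ugt2b5, Ugt2b37, Ugt2a3, Ugt2b38, Sult1b1, Sult1d1 and Sult1e1. The 3 large differences were not in neighbouring members throughout, since Ugt2a3 lies between Ugt2b37 and Ugt2b38. At one end Ugt2b34 was lower in KO over 14 arrays. At the other end Sult1d1 (0.46 ± 0.18, adjusted p = 0.287), Sult1b1 (0.15 ± 0.09, adjusted p = 0.521) and Sult1e1 (0.06 ± 0.09, adjusted p = 0.854), the oestrogen sulfotransferase, did not pass, and neither did Ugt2b1, Ugt2b35 and Ugt2a3 within the block.

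**Figure D2:**
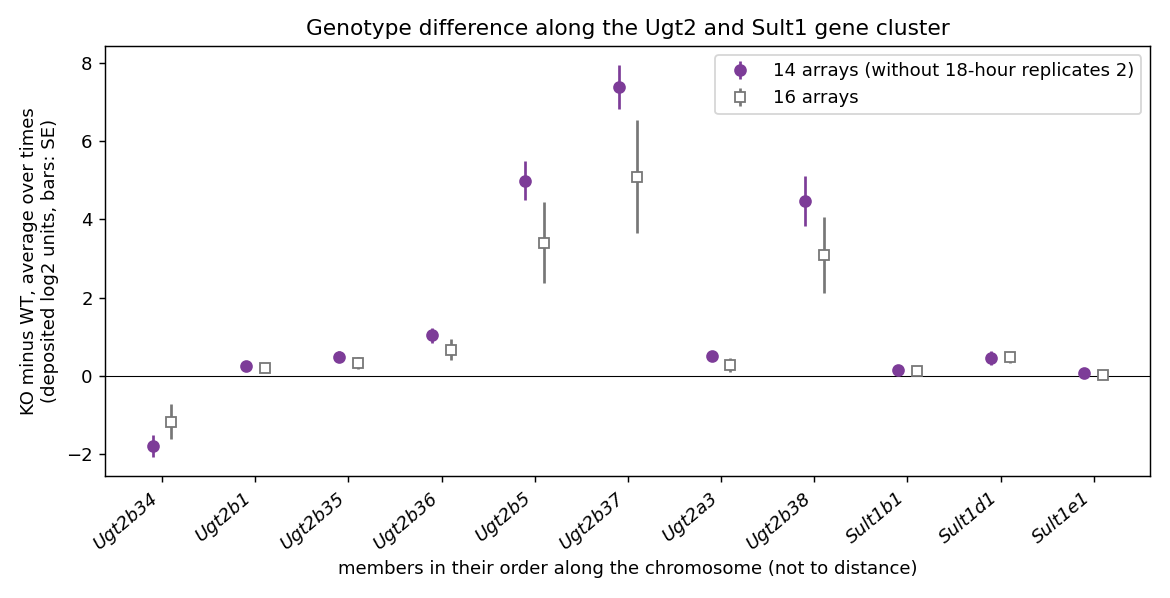
KO minus WT difference averaged over the 4 times (vertical axis, deposited log2 units; bars are SE) for the 11 members of the Ugt2 and Sult1 block on chromosome 5, in gene order and not to distance. Over 14 arrays (filled circles) Ugt2b5, Ugt2b37 and Ugt2b38 stand at 4.99, 7.38 and 4.46, with Ugt2a3 between the last pair at 0.51, and Ugt2b34 at -1.79. The 16-array values (open squares) run the same way and are smaller for these 4 genes.

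The Ugt3a genes, whose human counterparts use sugars other than glucuronic acid, did not pass in the genotype average. Ugt3a2, with the highest mean value of the Ugt members, differed by 0.47 ± 0.41 over 16 arrays (adjusted p = 0.68) and Ugt3a1 by 0.39 ± 0.46 (adjusted p = 0.773). Without KO 2 weeks replicate 2, the KO minus WT difference at 2 weeks was 3.24 for Ugt3a1 and 2.94 for Ugt3a2. The 1 KO array left at that time was replicate 1, which lacked the tubule injury signal. Its injury marker mean was 5.93, against 9.89 and 9.37 in WT at 2 weeks.

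Among the 20 Gst genes Gsta4, an alpha-class enzyme specialised for the lipid peroxidation product 4-hydroxynonenal, was lower in KO. In KO it stood at 10.04 and 10.26 untreated, 9.32 and 12.62 at 18 hours, 9.23 and 9.42 at 6 days, and 9.02 and 9.53 at 2 weeks. Its WT values were 12.06 and 12.34 untreated, 12.34 and 9.05 at 18 hours, 11.78 and 11.93 at 6 days, and 9.99 and 11.27 at 2 weeks. Without the 18-hour replicates 2 all KO arrays were at 10.26 or below and all WT arrays but 2 weeks replicate 1 at 11.27 or above, and that array alone made the genotypes overlap. The average difference was -1.42 ± 0.52 over 16 arrays (adjusted p = 0.339) and -2.24 ± 0.21 over 14 arrays (adjusted p = 0.0011).

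Gsta2, another alpha-class enzyme and the Gst member with the highest mean value, ran in the same direction and did not pass the test. In KO it stood at 12.87 and 13.71 untreated, 12.95 and 14.64 at 18 hours, 12.37 and 12.66 at 6 days, and 11.32 and 11.54 at 2 weeks. WT arrays had 14.2 and 14.81 untreated, 14.66 and 12.4 at 18 hours, 14.07 and 14.06 at 6 days, and 11.26 and 14.04 at 2 weeks. The genotypes overlapped over 14 arrays through WT 2 weeks replicate 1 alone, which was the lowest array of all. The average difference was -0.93 ± 0.44 over 16 arrays (adjusted p = 0.45) and -1.42 ± 0.40 over 14 arrays (adjusted p = 0.143).

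The third alpha-class member, Gsta3, did not show this direction (0.28 ± 0.32 over 14 arrays, adjusted p = 0.775). Gsto1, an omega-class enzyme that can reduce dehydroascorbate, had -0.46 ± 0.10 (adjusted p = 0.0593), and the mu-class Gstm2 had -0.51 ± 0.13 (adjusted p = 0.0956), both over 14 arrays. Gstm2 held the smallest p-value of the 51 members over 16 arrays (-0.46 ± 0.11, adjusted p = 0.25): it averaged 9.47 ± 0.23 in KO and 9.93 ± 0.27 in WT (SD, n = 8 each), with the groups overlapping. The other 15 Gst genes had differences between -0.27 (Gstm3) and 0.36 (Gstz1) over 14 arrays, and none passed.

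**Figure D3:**
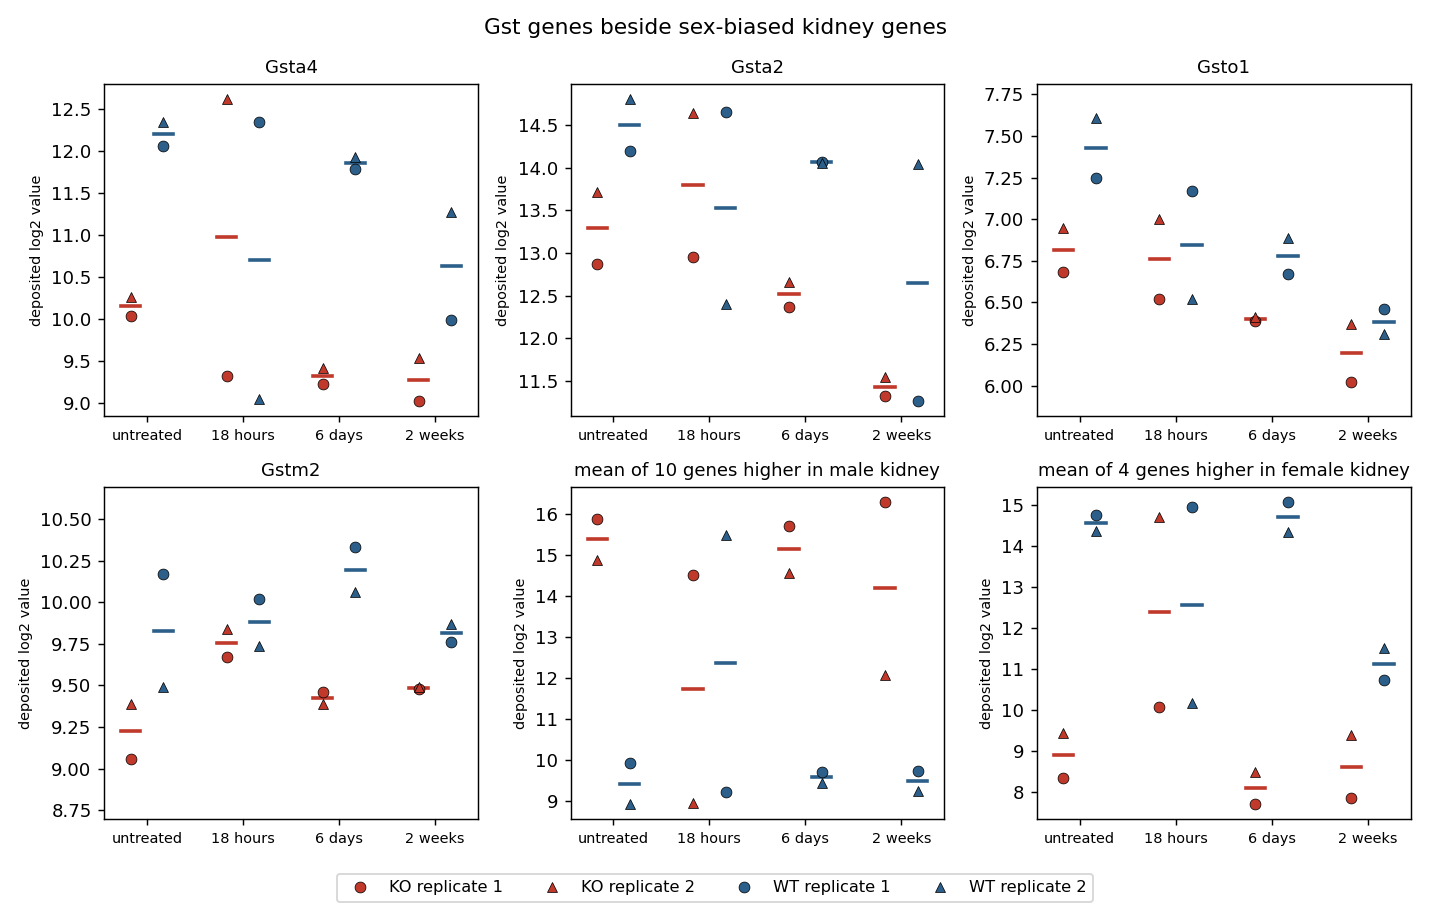
Deposited log2 values on each array of Gsta4, Gsta2, Gsto1 and Gstm2, and the mean of 10 genes higher in male kidney and of 4 genes higher in female kidney (points; circles are replicate 1, triangles replicate 2; bars are group means), by time after serum, KO left of WT. For Gsta4 and both list means, each 18-hour replicate 2 array sits with the replicate 1 array of the other genotype, and WT 2 weeks is low for Gsta4 (9.99 and 11.27) and for the female list (10.73 and 11.51).

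The 21 Sult genes showed the least movement by genotype. On every array 17 of them stayed under 6, against 4 of the 20 Gst and 3 of the 10 Ugt genes, and 14 Sult genes varied by less than 1 over all 16 arrays. Sult1d1, which sulfates catecholamines in the mouse, had the largest Sult difference: 0.47 ± 0.15 over 16 arrays (adjusted p = 0.288) and 0.46 ± 0.18 over 14 arrays (adjusted p = 0.287). All others lay between -0.07 and 0.15 over 16 arrays, including the oestrogen sulfotransferase Sult1e1 at 0.02 ± 0.08 (adjusted p = 0.94).

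Counted over the members, limma called none of the 51 in the genotype average over 16 arrays at an adjusted p under 0.05, where 0% of all 30142 genes were called. At an unadjusted p under 0.05 there were 9 members, 5 higher and 4 lower in KO, and 3514 of all genes (11.7%). Over 14 arrays 6 members were called (11.8%), against 1.72% of all genes: 4 were higher (0.72% of all genes) and 2 lower (1%). These were 5 of the 10 Ugt genes (Ugt2b37, Ugt2b5, Ugt2b38 and Ugt2b36 higher, Ugt2b34 lower) and Gsta4 among the Gst genes, and 0 of the 21 Sult genes, of which 1 had an unadjusted p under 0.05. Over 13 arrays 6 were called (background 2.61%) and over 12 arrays 5 (1.49%). Whether Ugt2b37, Ugt2b38 and Ugt2b5 cross-hybridise was not tested, so these member counts and shares may count 1 signal more than once. The median difference over 14 arrays was 0.51 for Ugt, -0.04 for Gst and 0.09 for Sult, against 0 over all genes. KO and WT arrays did not overlap for 0 members over 16 arrays (0% of all genes higher in KO, 0.00332% lower). Over 14 arrays they did not overlap for Ugt2b37 and Ugt2b5, higher in KO (3.92% of members and 0.484% of all genes), and for 0 members lower in KO (0.514% of all genes). The male-biased and female-biased kidney genes moved with these calls: over 14 arrays 8 of 10 genes higher in male kidney were higher in KO and 4 of 4 genes higher in female kidney were lower. Markers of glomerular cells were also lower in KO over 14 arrays, with median differences of -0.86 over 9 podocyte, -0.78 over 8 glomerular endothelial and -0.73 over 5 mesangial markers. Of these Npnt, a podocyte marker, was called (-1.56 ± 0.25, adjusted p = 0.0201), as was Tyrobp among 8 macrophage markers (-0.61 ± 0.09, adjusted p = 0.0106; median -0.23). Their part in the member differences was not tested.

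**Figure D4:**
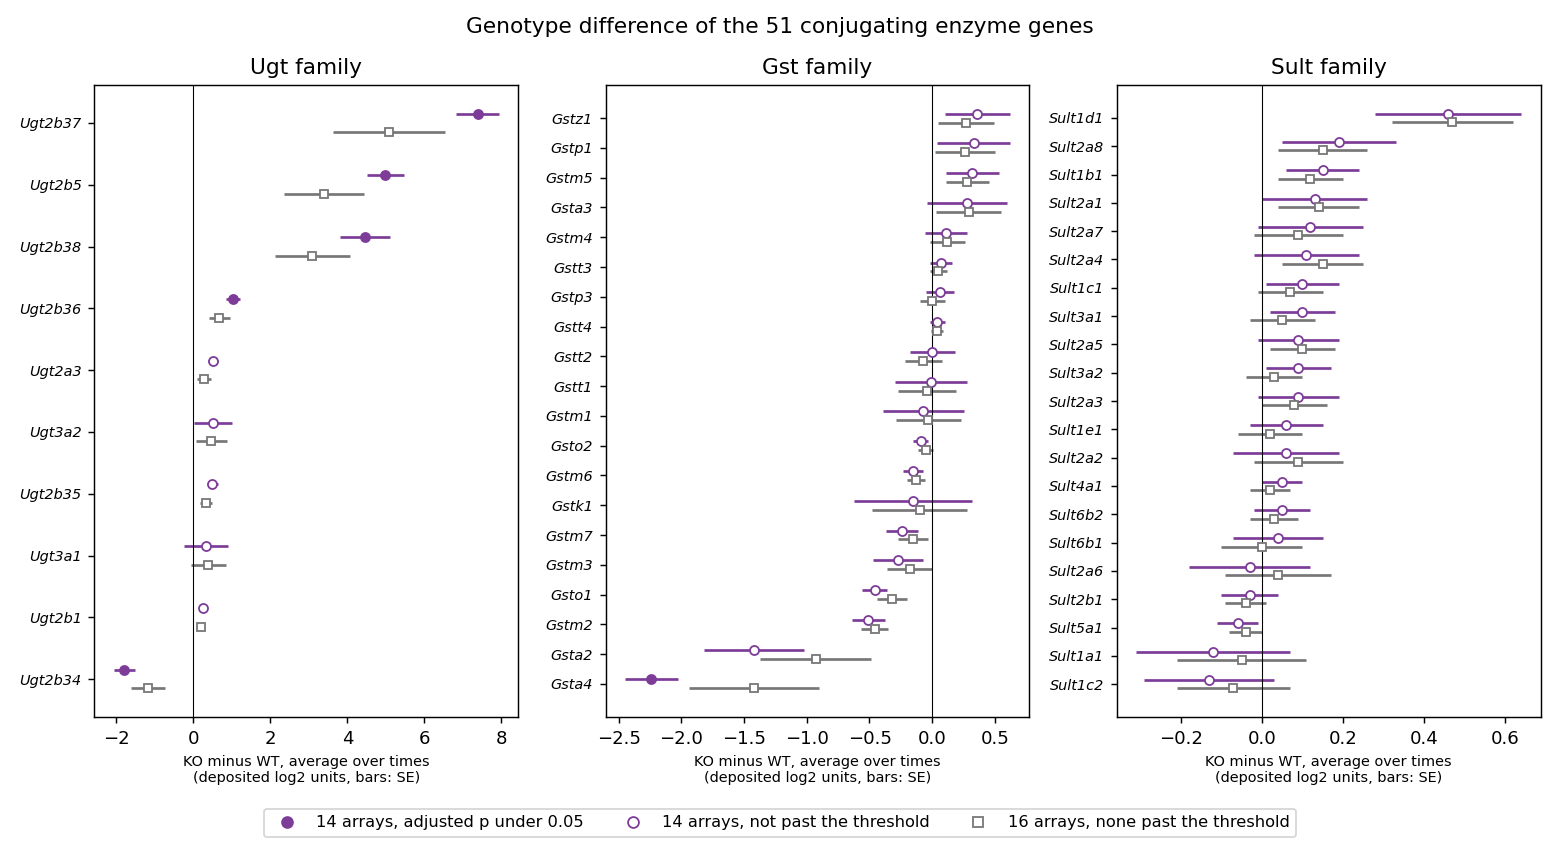
KO minus WT difference averaged over the 4 times for all 51 members by family (horizontal axis, deposited log2 units, with a scale of its own in each panel; bars are SE), over 14 arrays (circles, filled where the adjusted p is under 0.05) and 16 arrays (squares). The 6 filled circles are Ugt2b37, Ugt2b5, Ugt2b38, Ugt2b36, Ugt2b34 and Gsta4, and no square passes.

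Time by time, no member was called between KO and WT over 16 arrays. The share of all genes called was 0% untreated and at 18 hours, 0.00664% at 6 days and 0.182% at 2 weeks. Unadjusted p-values under 0.05 were held by 6 members untreated, 0 at 18 hours, 9 at 6 days and 7 at 2 weeks. Here and below, such unadjusted counts have no share of all genes at the same threshold beside them. They cannot be read as an excess over all genes. Over 14 arrays Ugt2b37 was called in untreated mice (8.20 ± 0.98, adjusted p = 0.0189; background 0.169%, of which 0.0398% higher). At 18 hours, with 1 array left per genotype, none was called (background 0.0398%, of which 0.00995% higher; 7 members at an unadjusted p under 0.05). At 6 days Ugt2b37 (7.92 ± 0.98, adjusted p = 0.0167), Ugt2b5 (5.75 ± 0.87, adjusted p = 0.0425) and Gsta4 (-2.53 ± 0.37, adjusted p = 0.0377) were called (background 0.236%). At 2 weeks no member passed over 14 arrays (background 0.0365%; 9 at an unadjusted p under 0.05), with Ugt2b37 at 4.82 ± 0.98 (adjusted p = 0.114).

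Serum was followed by lower values of several Gst genes and of Sult1c2 at 2 weeks in WT. Limma called 5 of 51 members over 16 arrays, all lower (9.8%), where 8.04% of all genes were called with 3.23% called lower and 4.81% higher. They were Gstt2, Gstt3, Gsto1 and Gstm5 of the Gst family and Sult1c2, of the Sult1 subfamily. No Ugt gene passed, with 2 of 10 at an unadjusted p under 0.05, both lower. The proximal tubule markers moved at the same time: 7 of 14 were called lower in WT at 2 weeks, with a median difference of -2.15, and their mean was 13.14 and 14.22 at 2 weeks in WT against 15.53 and 16.0 untreated. Of 8 macrophage markers 4 were called higher, with differences from -0.85 to 3.07 and a median of 0.63, and Csf1r was at 8.53 and 8.37 at 2 weeks in WT against 9.75 and 8.84 untreated. Of 4 tubule injury markers 2 were called higher, Havcr1 by 6.84 ± 1.41 (adjusted p = 0.0229) and Vcam1 by 4 ± 1 (adjusted p = 0.0378). With the tubule markers minus the podocyte markers as a covariate, none of the 5 was called, and over 14 arrays Gstt2 and Gsto1 were called (background 2.85%).

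Gstt2, a theta-class transferase, had 11.76 and 11.41 in WT at 2 weeks and 13.21 and 13.39 in untreated WT. The difference was -1.72 ± 0.31 (adjusted p = 0.0163). At 18 hours it was already at 12.36 and 12.51 and at 6 days at 11.88 and 12.05 in WT, and these responses did not pass (-0.87 ± 0.31 at 18 hours, adjusted p = 1, and -1.34 ± 0.31 at 6 days, adjusted p = 0.324). In KO it stood at 13.03 and 12.76 untreated, 12.61 and 12.17 at 18 hours, 12.14 and 11.37 at 6 days, and 12.34 and 11.56 at 2 weeks, which gave -0.94 ± 0.31 at 2 weeks (adjusted p = 0.407).

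Sult1c2, with the highest mean value of the Sult members, had 13.15 and 13.26 in WT at 2 weeks and 14.31 and 14.35 in untreated WT (-1.13 ± 0.28, adjusted p = 0.0357). In KO it stood at 14.53 and 14.43 untreated, 14.87 and 14.96 at 18 hours, 13.51 and 12.9 at 6 days, and 13.62 and 12.96 at 2 weeks. The KO values at 6 days and 2 weeks were all below those of untreated KO, and limma did not call the differences (-1.27 ± 0.28 at 6 days, adjusted p = 0.213, and -1.19 ± 0.28 at 2 weeks, adjusted p = 0.202). On KO 2 weeks replicate 1, the array without a tubule injury signal, it stood at 13.62, below untreated KO and above the other KO arrays at 6 days and 2 weeks.

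Gsto1 had 6.46 and 6.31 in WT at 2 weeks and 7.25 and 7.61 in untreated WT (-1.05 ± 0.23, adjusted p = 0.0285). Gstt3, another theta-class member, had 6.76 and 6.77 at 2 weeks and 7.21 and 7.37 untreated (-0.52 ± 0.14, adjusted p = 0.0461). Gstm5, of the mu class, had 8.64 and 9.43 at 2 weeks and 10.01 and 10.58 untreated (-1.26 ± 0.34, adjusted p = 0.0484). None of these 3 genes overlapped between 2 weeks and untreated WT. With 2 arrays per group, and genes already called in this contrast, that adds no support. The share of all genes without such overlap was not counted. None of the 5 passed without either untreated WT array or without WT 2 weeks replicate 2. More members passed without either KO 2-week array, and without KO 2 weeks replicate 1 more of all genes passed too.

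Some larger changes did not pass, in genes whose arrays at 2 weeks differed within KO, WT or both. The test uses a spread shared by all groups. The SD at 2 weeks was 2.3 in KO and 1.72 in WT for Ugt3a1, and 2.24 and 1.2 for Ugt3a2. It was 1.17 and 0.34 for Gstz1, and 0.15 and 1.97 for Gsta2. Ugt3a1 had 11.23 and 13.66 in WT at 2 weeks and 14.75 and 14.87 untreated (-2.37 ± 0.91, adjusted p = 0.116). Ugt3a2 had 13.76 and 15.47 at 2 weeks and 16.7 and 17.05 untreated (-2.26 ± 0.81, adjusted p = 0.0989). Gsta2, with 11.26 and 14.04 at 2 weeks, had -1.85 ± 0.89 (adjusted p = 0.18). WT replicate 1 was the lower WT array at 2 weeks in each of these 3 genes, as it was for the proximal tubule markers. Gstz1, the maleylacetoacetate isomerase of tyrosine breakdown, had 8.86 and 9.34 at 2 weeks and 10.54 and 10.65 untreated (-1.49 ± 0.45, adjusted p = 0.0629).

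**Figure D5:**
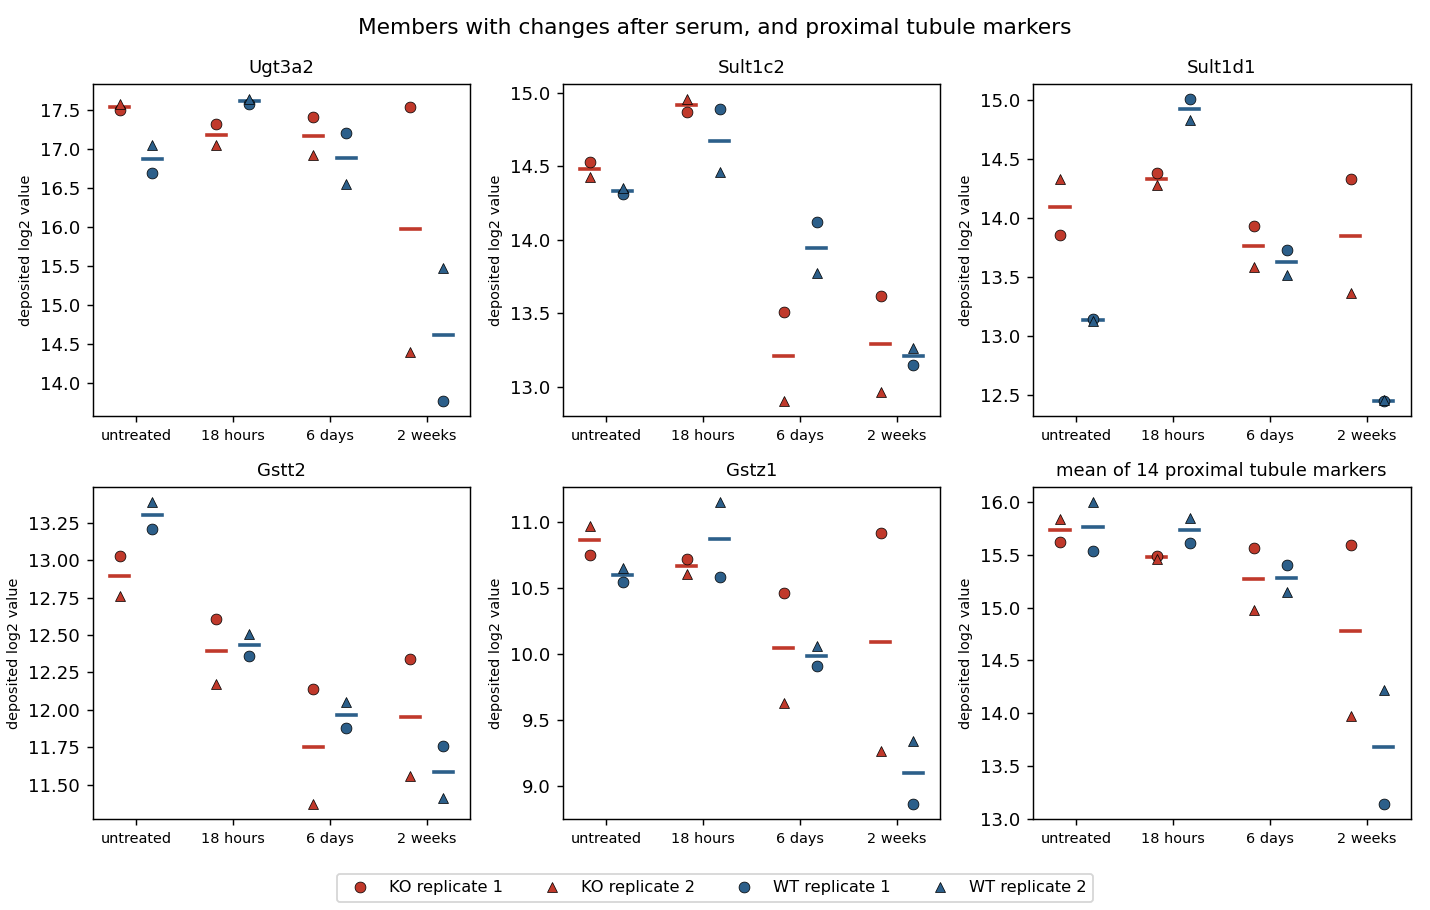
Deposited log2 values on each array of Ugt3a2, Sult1c2, Sult1d1, Gstt2 and Gstz1 and the mean of 14 proximal tubule markers (points; circles are replicate 1, triangles replicate 2; bars are group means), by time after serum, KO left of WT. WT at 2 weeks lies below untreated WT in all 6 panels, while at 2 weeks KO replicate 1 stays near untreated KO for Ugt3a2, Sult1d1, Gstz1 and the tubule markers and KO replicate 2 lies below it.

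In KO no member was called at 2 weeks over 16 arrays (0.109% of all genes; 5 members at an unadjusted p under 0.05), and the 2 replicates disagreed. Ugt3a2 had 17.55 in KO 2 weeks replicate 1 and 14.39 in replicate 2, against 17.5 and 17.58 in untreated KO. Gstz1 had 10.91 and 9.26 in the same KO arrays at 2 weeks, against 10.75 and 10.97 untreated. The tubule marker mean was 15.59 and 13.97 in those 2-week arrays. Over 13 arrays, without replicate 1, 8 members were called, all lower (15.7%, background 4.35%), and the remaining 2-week KO array is assumed to vary like the other groups. These were Ugt2b37 (-3.89 ± 0.53, adjusted p = 0.0171), Ugt2b38 (-3.90 ± 0.81, adjusted p = 0.038), Ugt2b5 (-3.32 ± 0.43, adjusted p = 0.0168), Ugt3a2 (-3.15 ± 0.63, adjusted p = 0.0347), Gstz1, Gstp1, Gstt3 and Sult1c2. The mean of the 10 male-biased genes was also lower in that array, 12.07 against 15.88 and 14.86 in untreated KO. In WT over 13 arrays 11 members were called at 2 weeks, 10 lower and Sult2a7 higher (21.6%, background 12.9%).

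At 18 hours and 6 days no member was called in KO or WT over 16 arrays. The share of all genes called was 0% at 18 hours in both genotypes and at 6 days in WT, and 0.0133% at 6 days in KO. At an unadjusted p under 0.05 there were 1 member at 18 hours and 4 at 6 days in KO, and 4 at 18 hours and 2 at 6 days in WT. The largest 18-hour differences were those of Ugt2b37 (-4.44 ± 2.89 in KO and 4.34 ± 2.89 in WT, adjusted p = 1 for both), Ugt2b5 and Ugt2b38, and each rests on a replicate 2 array. At 6 days in KO, Gstk1, the kappa-class enzyme of mitochondria and peroxisomes, had 8.54 and 7.67 against 9.21 and 9.53 untreated (-1.27 ± 0.76, adjusted p = 0.854), and Gsta3 had 9.04 and 8.65 against 9.82 and 10.2 (-1.17 ± 0.53, adjusted p = 0.667). Sult1d1 had the smallest p-value of these responses: it stood at 15.01 and 14.83 in WT at 18 hours and 13.15 and 13.13 in untreated WT (1.78 ± 0.29, adjusted p = 0.466). In KO it stood at 14.38 and 14.28 at 18 hours and 13.86 and 14.33 untreated. The 18-hour WT arrays, replicate 2 included, were the highest of all arrays for this gene. The difference between the KO and WT responses of Sult1d1 was -1.55 ± 0.41 (adjusted p = 1). At 2 weeks Sult1d1 had 14.33 and 13.37 in KO and 12.45 and 12.46 in WT, a difference of 1.39 ± 0.29 (adjusted p = 0.0866).

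The responses of KO and WT to serum were compared directly as a difference of differences. No member passed at 18 hours, 6 days or 2 weeks over 16 arrays, where 0% of all genes were called at each time. At an unadjusted p under 0.05 there was 1 member at 18 hours, 1 at 6 days and 0 at 2 weeks. The largest were those of Ugt2b37 at 18 hours (-8.77 ± 4.09) and at 2 weeks (-3.37 ± 4.09, adjusted p = 0.813), and of Sult1c2 at 6 days (-0.89 ± 0.39), with an adjusted p of 1 for the first and last. Over 13 arrays Ugt2b37 had the largest difference of responses at 2 weeks, -5.24 ± 0.69, and did not pass (adjusted p = 0.147).

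Genes that supply, continue or reverse these reactions, or stand near them, were counted as 6 lists. Not every gene of the UDP-glucuronic acid list supplies that donor. In the genotype average over 16 arrays no gene of any list was called. Over 14 arrays, a set chosen after values were seen, 1.72% of all genes were called, 0.72% higher and 1% lower. Over 14 arrays the supply of UDP-glucuronic acid had 0 of 6 called, with the Golgi sugar transporter Slc35a3 at 0.62 ± 0.19 (adjusted p = 0.185), the glucuronidase Gusb at 0.55 ± 0.26 (adjusted p = 0.379) and Ugdh, which makes the donor, at 0.40 ± 0.14 (adjusted p = 0.23). Of the sulfate supply list 1 of 10 was called, Slc26a1, a sulfate and oxalate exchanger, higher by 1.37 ± 0.26 (adjusted p = 0.0383). Papss2, which makes PAPS, had -0.57 ± 0.27, and Bpnt1, which clears the product left from PAPS, had 0.49 ± 0.31. Neither passed. Of the glutathione synthesis and breakdown list 3 of 16 were higher and 1 was lower in KO. The higher ones act late in the mercapturate and cysteine conjugate steps or in peptide cleavage: Nat8, which acetylates cysteine conjugates (2.32 ± 0.34, adjusted p = 0.0123), Kyat1, a cysteine conjugate beta-lyase (1.81 ± 0.22, adjusted p = 0.00536), and the aminopeptidase Lap3 (1.5 ± 0.28, adjusted p = 0.0334). Ggt6, of the gamma-glutamyltransferase family, was lower (-0.94 ± 0.08, adjusted p = 0.000765). The aminoacylase Acy3 had 1.88 ± 0.47 (adjusted p = 0.0953), and Gclc, which starts glutathione synthesis, had -0.41 ± 0.23 (adjusted p = 0.483).

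The remaining lists are given over the same 14 arrays, where 0.72% of all genes were called higher and 1% lower. Of the membrane-bound and other glutathione enzymes 1 of 11 was lower, Ltc4s, the leukotriene C4 synthase (-0.39 ± 0.07, adjusted p = 0.0375). Clic5, a podocyte-rich member of this list, had -0.56 ± 0.30 (adjusted p = 0.455) and Mgst3 -0.52 ± 0.31 (adjusted p = 0.514). Of the other conjugating enzymes 5 of 14 were higher in KO: the acyl-CoA synthetases Acsm3 (6.79 ± 0.59, adjusted p = 0.000859), which is also among the male-biased genes, and Acsm2 (2.75 ± 0.43, adjusted p = 0.0166), the galactosylceramide synthase Ugt8a (4.25 ± 0.28, adjusted p = 0.000212), the amine methyltransferase Inmt (3.28 ± 0.59, adjusted p = 0.0313) and the arylamine acetyltransferase Nat2 (1.88 ± 0.17, adjusted p = 0.000993). Of 15 regulators 2 were higher, the repressor Bcl6 (1.23 ± 0.25, adjusted p = 0.0483) and Esr1 (0.70 ± 0.09, adjusted p = 0.00554). The xenobiotic receptor Nr1i2 had -0.58 ± 0.15 (adjusted p = 0.113), and Nfe2l2, the activator of many Gst genes, had -0.17 ± 0.11 (adjusted p = 0.532).

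At 2 weeks in WT, over 16 arrays, 7 genes of these lists were called, where 8.04% of all genes were: 1 of 10 in the sulfate list, 1 of 16 in the glutathione synthesis list, 2 of 11 among the membrane and other glutathione enzymes, 1 of 14 other conjugating enzymes, 2 of 15 regulators and 0 of 6 in the UDP-glucuronic acid list. Lower were Papss2, which makes the sulfate donor (-2.12 ± 0.45, adjusted p = 0.0247), the oxoprolinase Oplah (-0.97 ± 0.17, adjusted p = 0.0156), Acsm1 (-3.45 ± 0.90, adjusted p = 0.0423), and the regulators Hnf4a (-1.33 ± 0.27, adjusted p = 0.0222), which is also a tubule marker here, and Ppara (-1.52 ± 0.40, adjusted p = 0.044). Higher were Hpgds, a glutathione-dependent prostaglandin D synthase (0.84 ± 0.15, adjusted p = 0.0171), and Clic1, a chloride channel protein with a glutathione transferase fold (1.22 ± 0.33, adjusted p = 0.0466).

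In the start regions of 44 of the 51 member genes found in RefSeq, 4 short motifs were searched on both strands in the same 300-base window. The hepatocyte nuclear factor 1 motif GTTAATNAT was in 5 of 44 member genes, Sult1d1, Sult2a3, Sult2a4, Sult2a5 and Sult2a6, and in 0.8% of 32851 promoters of all genes. The 4 Sult2a genes, sulfotransferases of hydroxysteroids, are related copies on chromosome 7 and are not independent of each other. None of the 9 Ugt genes held an exact match, and near matches were not counted. The windows of Ugt2b37, Ugt2b38 and Ugt2b5 printed above hold ATTAATAAT, which differs from the motif only in its first base. The antioxidant response element core TGACNNNGC was in 3 of 44 (12.4% of all promoters), the STAT motif TTCNNNGAA in 2 of 44 (8.3%) and the androgen and glucocorticoid receptor half-site AGAACA in 9 of 44 (19.0%). A member gene counted if any of its promoters held the motif, while the shares over all genes are per promoter. Of 55 member promoters 5 held the hepatocyte nuclear factor 1 motif, 3 the antioxidant core, 2 the STAT motif and 10 the half-site. The half-site was in Ugt2b34 and Ugt2b36 among the Ugt genes, and these letters were not in the windows of Ugt2b37, Ugt2b38 and Ugt2b5 printed above.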

How the data were processed

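The authors deposited 1 table of log2 values for 72688 probesets on 16 arrays, made with Transcriptome Analysis Console and Affymetrix Expression Console according to the submitters' processing notes. The sources used here do not give their versions, the normalization or the annotation build. Values ran from 2.22 to 19.93 and array medians from 5.57 to 5.9. Probesets with 1 symbol (30604) were kept, 827 symbols were updated through the Entrez identifier, and the brightest probeset was taken for 355 genes with several, which left 30142 genes. With limma 3.58.1 under R 4.3.3, 8 group means were fitted per gene over 16 arrays (8 residual degrees of freedom, intensity trend), and the Benjamini-Hochberg adjustment ran over the 30142 genes of each contrast. The p-values use a spread shared by all groups, and precision is limited by 2 mice per group. The fit was tested on simulated data. Members and lists were chosen with earlier results of these data known. Named members are those called over 16 arrays or in the genotype average over 14, the largest differences and responses, and the highest mean of each family; Gstz1 and the low-value Ugt and Sult genes are named for their role, and Gstm2 and Gstp1 were chosen after their values were seen. Of each pathway list the called genes and the 3 with the largest genotype difference are named, with Gclc and Nfe2l2 added for their role. The planned comparison of protein sequences was not run. Alternatives changed the filter, scaling, moderation, weights, covariates or arrays used. The main fit did not pair samples by replicate number. Over 28 pairs of groups the deviations of same-numbered arrays correlated between -0.68 and 0.59 (median 0.04). This does not decide whether same-numbered arrays were processed together, since arrays that stood apart also shape these deviations.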

Additional observations from a re-analysis of the deposited data

How the results depend on the processing

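For the genotype average, 0 members were called over 16 arrays and under every other setting that kept all arrays, while 6 were called over 14 arrays, 6 over 13 and 5 over 12. Leaving out 1 array left 1 array in a group. It moved the count from 0 only without KO 2 weeks replicate 2, where many of all genes also came to pass. For KO minus WT in untreated mice the count of 0 became 3 with only the groups compared, 1 over 14 arrays, 4 over 13 and 1 over 12. At 18 hours it became 2 over 13 arrays. At 6 days it became 5 with only the groups compared, 3 over 14 arrays, 5 over 13 and 3 over 12. At 2 weeks leaving out 1 array moved the count from 0 only for KO 2 weeks replicate 2 and WT 2 weeks replicate 1. Many of all genes also came to pass without KO 2 weeks replicate 2. For WT at 2 weeks minus untreated the 5 calls became 8 with arrays centred on their medians, 4 after quantile normalization (Gsto1, Gsto2, Gstt2 and Gstt3, so Sult1c2 and Gstm5 no longer passed), 6 with probesets averaged (Sult6b1 higher added), 0 with array weights, 2 with only the groups compared (Gstt2 and Gstz1), 3 with the replicate block (Gsto1, Gstt2 and Sult1c2), 2 with the tubule covariate (Sult2a7 and Sult2a8, both higher), 2 over 14 arrays, 11 over 13 and 2 over 12. Leaving out 1 array moved this count under every such setting, and among these it was highest without either KO 2-week array. With only the groups compared, 0.411% of all genes were called untreated and 0.375% at 6 days between genotypes, and 2.05% in WT at 2 weeks. Over 12 arrays these shares were 0.169%, 0.236% and 2.85%. Over 13 arrays the shares between genotypes were 0.63% untreated and 0.737% at 6 days. Where no share is given for a setting, its count does not show whether members moved more than all genes. For KO at 6 days, array weights gave 3 calls (Sult1c2, Gstt2 and Gstt3, all lower). Leaving out 1 array moved that count from 0 only for the KO 2-week arrays. For KO at 2 weeks the tubule covariate gave 3 (Sult2a1, Sult2a7 and Sult2a8, all higher), the 13 arrays 8, and leaving out 1 array 0 to 7, with 7 lower without replicate 1 and 4 higher without replicate 2. The count for the difference of responses at 2 weeks moved from 0 only without KO 2 weeks replicate 2. The replicate block changed no other count. The cause of these changes was not tested. For the genotype averages of the members named by rule and their largest serum responses, and not for all 51 members and contrasts, 1014 values kept their direction and side of the threshold, 30 came to pass, 65 no longer passed, 28 uncalled values changed sign, and no called value was reversed.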

Other observations

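The probeset shared by Gsta1 and Gm3776 was left out because it carries several symbols. It stood at 11.71 and 12.56 in KO untreated, 11.63 and 13.49 at 18 hours, 11.18 and 11.47 at 6 days, and 10.05 and 10.35 at 2 weeks. In WT it stood at 12.95 and 13.69 untreated, 13.47 and 11.07 at 18 hours, 13.01 and 13.15 at 6 days, and 10.16 and 12.91 at 2 weeks. Here too the 18-hour replicate 2 array of each genotype stood with the arrays of the other, and WT 2 weeks replicate 1 was the lowest WT array.

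Low-value Sult2a genes were highest on the KO array that lacked a tubule injury signal. On KO 2 weeks replicate 1 Sult2a1 stood at 5.25, Sult2a4 at 5.16, Sult2a7 at 5.44 and Sult2a8 at 5.03. On KO 2 weeks replicate 2 they stood at 4.49, 4.36, 4.58 and 4.2. These 4 genes were chosen after their values were seen, and no detection calls are given that would say whether such values are above background.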
